A study of Mus musculus with 7 samples.

Results

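Nucleic acid sensors are the proteins by which a cell detects DNA or RNA that may come from a virus or from its own damaged or misplaced nucleic acid. The group described here has 10 genes of the 55401 in the count table, chosen by gene symbol: the cytosolic RNA helicases Ifih1, Ddx58 and Dhx58, the endosomal Toll-like receptors Tlr3, Tlr7 and Tlr9, the RNA-binding sensors Zbp1 and Eif2ak2, and Adar and Trex1, enzymes that limit sensing of self nucleic acid. They were measured by RNA sequencing in microglia, the resident macrophages of the brain, enriched with CD11b beads from the dorsal hippocampus of C57BL/6 mice aged 6 to 8 weeks. Every mouse received the virus AAV-RAM-Cre, injected into the dorsal dentate gyrus, in which Cre is driven by RAM, a synthetic promoter active in neurons engaged by a recent experience. With it, the mice of 4 libraries received the Cre-dependent virus AAV-Dio-EYFP (control, libraries EYFP 1 to 4). Those of 3 libraries received AAV-Dio-Atg7-Flag (libraries ATG7 1 to 3). The control mice therefore carried Cre and a reporter as well. The transgene was thus directed to neurons of the dentate gyrus, while the RNA came from a fraction enriched for microglia that also held other cells. The labels do not say whether each library is 1 mouse or a pool. The comparison asks how transcripts of this fraction differ when Atg7, a gene required for autophagy, is overexpressed in engram neurons.

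As background, Ddx58 encodes RIG-I and Ifih1 encodes MDA5, helicases that bind viral RNA in the cytosol and signal through the mitochondrial adaptor Mavs to the transcription factors Irf3 and Irf7, which switch on type I interferon genes. The endosomal receptors read nucleic acid taken up from outside: Tlr3 recognises RNA duplexes, Tlr7 single-stranded RNA and Tlr9 unmethylated CpG DNA, and all of them reach the endosome with the chaperone Unc93b1. Many of these genes are themselves induced by interferon, and microglia are among the cells of the brain that express them.

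The sequence before the transcription start is shown for Ifih1 and Ddx58, the RNA helicases among the called genes for which a window was matched. RefSeq promoter windows on GRCm38.p6 were matched for 7 of the 10 genes, and the 250 bases before the annotated start are given 5′ to 3′ on the strand of the gene. Capitals mark CpG dinucleotides, the positions at which mammalian DNA is mainly methylated, a feature chosen after the results were known.
Ifih1, chr2:62646256-62646505, minus strand: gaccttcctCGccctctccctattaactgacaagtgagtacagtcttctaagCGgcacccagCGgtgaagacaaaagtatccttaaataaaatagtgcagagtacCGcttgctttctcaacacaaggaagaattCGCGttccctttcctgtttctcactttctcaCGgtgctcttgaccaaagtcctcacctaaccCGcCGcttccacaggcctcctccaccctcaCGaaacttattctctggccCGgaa
Ddx58, chr4:40239826-40240075, minus strand: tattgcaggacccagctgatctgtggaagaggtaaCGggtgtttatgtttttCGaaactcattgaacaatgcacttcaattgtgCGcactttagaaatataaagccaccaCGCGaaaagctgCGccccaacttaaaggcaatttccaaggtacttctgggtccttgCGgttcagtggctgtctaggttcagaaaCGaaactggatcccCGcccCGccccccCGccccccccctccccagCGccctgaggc

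These stretches held 11 CpG dinucleotides in Ifih1 and 12 in Ddx58, and the one of Eif2ak2 held 12. The median over all 32851 windows was 6, with quartiles of 2 and 16, so these counts lay between the median and the upper quartile. Adar has 3 annotated starts, with 5, 24 and 10 CpG dinucleotides before them. Tlr3 held 6 and Tlr9 held 0. The annotation places 3 bases of the Ddx58 stretch and none of the Ifih1 stretch in an exon. Exons of the same or another gene cover 250 bases of the Eif2ak2 stretch and 178 of the Tlr3 stretch. They also cover 216 bases of the Adar stretch with 24 CpG dinucleotides. None of the Tlr9 stretch or of the other Adar stretches lies in an exon. Methylation was not measured here, and the counts describe the sequence only.

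Library totals lay between 35934210 and 55217119 counts. The 8 microglial markers examined summed to between 20710 and 25601 CPM. CPM is the count relative to library size, after scaling with TMM factors (trimmed means of M values). None of the 8 passed the test between the groups (edgeR adjusted p from 0.633 to 0.936), which does not show that their levels were equal. Below, a value followed by ± is a group mean with its SD over libraries (n = 4 in EYFP, n = 3 in ATG7). Choroid plexus markers, led by Ttr, summed to between 46003 and 71635 CPM, so the libraries also held RNA of other cells. The sums were 61791 ± 8131 CPM in EYFP and 53779 ± 7371 CPM in ATG7, and they overlapped (exact permutation p = 0.257, two-sided). Each of the 5 choroid plexus markers had a negative log2 fold change, from -0.27 to -0.16, and none passed (edgeR adjusted p from 0.428 to 0.724). In bulk RNA, fewer cells of a type and less RNA per cell cannot be told apart. The mice are described as male, and EYFP 3 went against this in sex-linked genes. Its Xist level was 938.5 CPM against at most 0.574 CPM in the others, and 4 Y-linked genes summed to 56.4 CPM, low but not absent, against 245.5 to 315.8 CPM. The library was kept in the main fit, and sensor results are also given without it. T and natural killer cell markers were the only one of 11 marker lists whose sums did not overlap between the groups, at 0.709 to 2.82 CPM in EYFP and 4.22 to 11.3 CPM in ATG7 (exact permutation p = 0.0286, two-sided, the smallest this design allows; 0.314 after Benjamini-Hochberg adjustment over 11 lists). All 5 markers of that list were detected and none was listed at 0 in every library. Their part in the results below was not tested.

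Of the 9 sensor genes that could be tested, 5 rose in ATG7: Ifih1, Ddx58, Dhx58, Eif2ak2 and Adar. Zbp1 had the largest fold of the 9, at 3.49, but did not pass the test, and the 3 Toll-like receptors did not pass. None fell. Across all 19199 genes tested, 0.688% were called higher in ATG7 (Benjamini-Hochberg adjusted p under 0.05, edgeR quasi-likelihood test, two-sided), 0.0677% lower and 0.755% in either direction. In 6 of the 9 genes every ATG7 library lay above every EYFP library, where 6.33% of all genes did so and 11.2% did not overlap in either direction. The median log2 fold change was 0.58 over the 9 genes and 0.00 over all genes tested (-0.00365 before rounding).

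**Figure D1:**
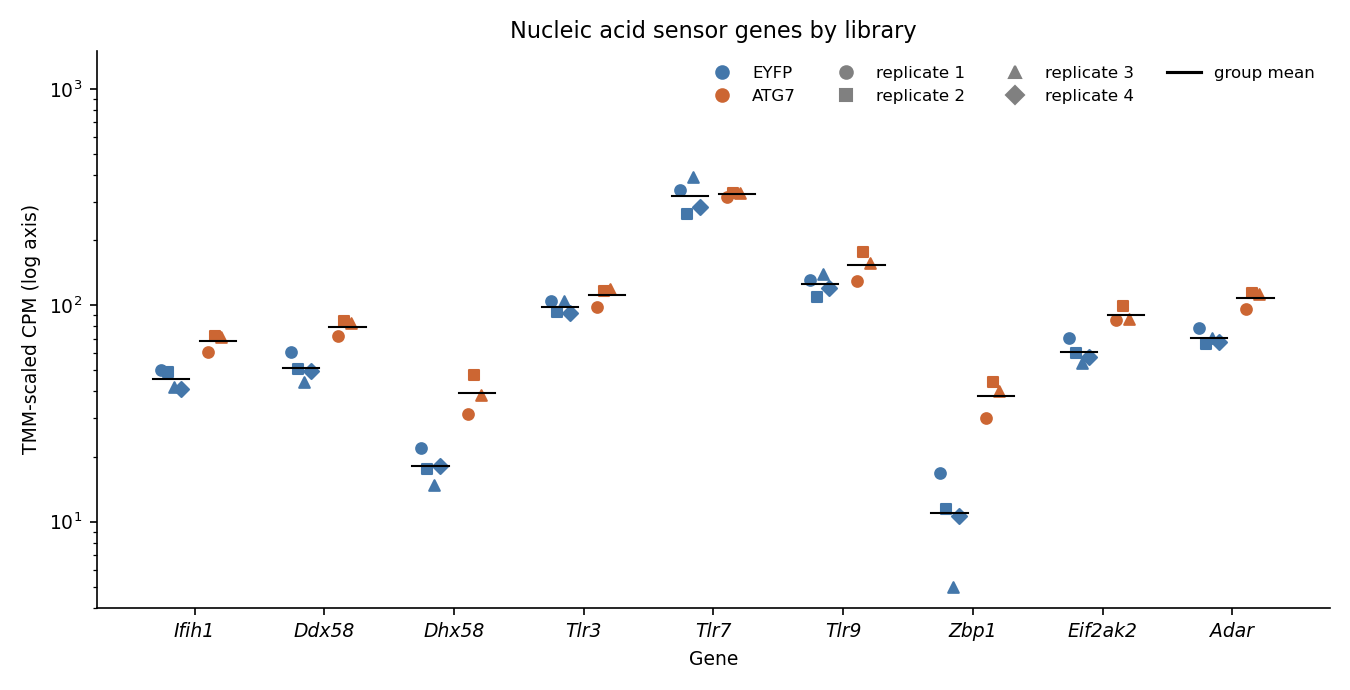
Expression of the 9 testable sensor genes in each library (vertical log axis, TMM-scaled CPM; blue, EYFP; orange, ATG7; marker shape, replicate number; black line, group mean). The groups separate in Ifih1, Ddx58, Dhx58, Zbp1, Eif2ak2 and Adar and overlap in Tlr3, Tlr7 and Tlr9.

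Ddx58 (ENSMUSG00000040296, GRCm38 chromosome 4, 40203773 to 40239828, minus strand) encodes RIG-I, which recognises the ends of uncapped viral RNA. Its levels were 60.8, 50.6, 44.3 and 49.6 CPM in EYFP 1 to 4, against 72.2, 84.2 and 82.6 CPM in ATG7 1 to 3. EYFP 1 was the highest control and still below the lowest ATG7 library. The group means were 51.3 ± 6.91 CPM and 79.6 ± 6.54 CPM, a log2 fold change of 0.64 (standard error, SE, 0.102; edgeR adjusted p = 0.0206).

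Ifih1 (ENSMUSG00000026896, chromosome 2, 62595798 to 62646255, minus strand) encodes MDA5, which binds long RNA duplexes. Its levels were 50.2, 49.4, 41.7 and 41.2 CPM in EYFP 1 to 4, against 60.8, 72.4 and 71.4 CPM in ATG7 1 to 3. The controls formed a higher pair, EYFP 1 and 2, and a lower pair, EYFP 3 and 4, and neither reached the ATG7 libraries. The mean rose from 45.6 ± 4.82 CPM to 68.2 ± 6.45 CPM, by 0.58 on the log2 scale (SE 0.0949, edgeR adjusted p = 0.0206).

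Dhx58 (ENSMUSG00000017830, chromosome 11, 100694884 to 100704271, minus strand) encodes LGP2, a helicase of the same family that lacks the signalling domains of the other two and modulates their activity. It was at 22.0, 17.6, 14.9 and 18.1 CPM in EYFP 1 to 4, and stood at 31.5, 47.4 and 38.5 CPM in ATG7 1 to 3. The lowest ATG7 library was again above the highest control. The mean rose from 18.1 ± 2.94 CPM to 39.1 ± 7.98 CPM, a log2 fold change of 1.11 (SE 0.151, edgeR adjusted p = 0.0118).

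The proportions of the helicases to each other were compared within each library. Per kilobase of annotated exon, Dhx58 stood at 0.779, 0.748, 0.723 and 0.789 times the level of Ddx58 in EYFP 1 to 4, and stood at 0.940, 1.21 and 1.01 times in ATG7 1 to 3, so that the ratios did not overlap. The ratio of Ifih1 to Ddx58 was 0.772 ± 0.0662 in EYFP and 0.739 ± 0.0101 in ATG7, and these overlapped. On the per-kilobase scale the mean levels in EYFP were 7.28 CPM per kilobase for Ddx58, 5.59 for Ifih1 and 5.54 for Dhx58, and in ATG7 they were 11.3, 8.35 and 11.96. In EYFP the levels of Ifih1 and Dhx58 differed by less than their spread. These ratios are descriptions with no test.

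Eif2ak2 (ENSMUSG00000024079, chromosome 17, 78852564 to 78882573, minus strand) encodes PKR, a kinase that is activated by RNA duplexes and phosphorylates the translation factor eIF2 alpha. It was at 70.5, 60.1, 54.1 and 57.4 CPM in EYFP 1 to 4, and stood at 85.9, 99.1 and 86.9 CPM in ATG7 1 to 3. The groups did not overlap, with EYFP 1 the nearest control. The mean rose from 60.6 ± 7.09 CPM to 90.6 ± 7.35 CPM, by 0.58 on the log2 scale (SE 0.0945, edgeR adjusted p = 0.0206). Its substrate gene Eif2s1, which encodes eIF2 alpha, had a log2 fold change of 0.05 (edgeR adjusted p = 0.839) and was picked out as the target of the kinase.

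Zbp1 (ENSMUSG00000027514, chromosome 2, 173206612 to 173218923, minus strand) encodes a sensor of left-handed Z-form nucleic acid that can start necroptosis through Ripk3 and Mlkl. It was at 16.9, 11.4, 4.97 and 10.7 CPM in EYFP 1 to 4, and stood at 30.2, 44.1 and 40.2 CPM in ATG7 1 to 3. EYFP 3 was lower than the other controls and EYFP 1 higher, so that the controls alone spanned a wider fold than those of any other gene of the group. The means were 11.0 ± 4.86 CPM and 38.1 ± 7.18 CPM. The fitted difference was 1.80 on the log2 scale, with a 95% interval from 0.94 to 2.66, and it did not pass the test (edgeR adjusted p = 0.107). Without EYFP 3 it was 1.55 and passed (edgeR adjusted p = 0.00602), and without EYFP 1 it was 2.08 and passed (edgeR adjusted p = 0.0471). Zbp1 passed in 4 of 17 alternative settings, these fits among them. Ripk3 and Mlkl, its downstream genes, were at 4.34 ± 0.465 and 1.38 ± 0.283 CPM in EYFP and at 5.16 ± 0.227 and 2.05 ± 0.286 CPM in ATG7, and neither passed (edgeR adjusted p = 0.558 and 0.355). Their log2 fold changes were 0.25 (95% interval from -0.07 to 0.57) and 0.57 (from 0.06 to 1.07). In both genes every ATG7 library lay above every EYFP library, as in 6.33% of all genes tested.

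Adar (ENSMUSG00000027951, chromosome 3, 89715022 to 89753446, plus strand) encodes ADAR1, which converts adenosine to inosine in RNA duplexes and so keeps self RNA from MDA5 and PKR. It was at 78.6, 66.3, 70.3 and 67.7 CPM in EYFP 1 to 4, and stood at 96.6, 114.0 and 112.5 CPM in ATG7 1 to 3. The controls were close together and all of them were below the ATG7 libraries. The mean rose from 70.7 ± 5.52 CPM to 107.7 ± 9.67 CPM, a log2 fold change of 0.61 (SE 0.0843, edgeR adjusted p = 0.0113), which was the smallest p of the group. Adar shares 16.8% of its exon bases with Chrnb2 on the opposite strand. The strand setting of the counting is not given in the sources used here. Chrnb2 itself was at 1.64 ± 0.684 CPM in EYFP and 2.35 ± 0.111 CPM in ATG7, a log2 fold change of 0.53 (edgeR adjusted p = 0.531). Whether reads from the shared bases entered the count of Adar was not tested. The related editing enzyme gene Adarb1 had a log2 fold change of -0.11 (edgeR adjusted p = 0.722).

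Adar, Ifih1 and Eif2ak2 rose by similar amounts. Per kilobase, the ratio of Ifih1 to Adar was 0.643 ± 0.0682 in EYFP and 0.629 ± 0.00325 in ATG7. That of Eif2ak2 to Adar was 1.36 ± 0.0997 in EYFP and 1.34 ± 0.0996 in ATG7. Both ratios overlapped between the groups. The ratio of Zbp1 to Eif2ak2, in contrast, was 0.256 ± 0.0892 in EYFP and 0.608 ± 0.0869 in ATG7, with no overlap.

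Trex1 (ENSMUSG00000049734, chromosome 9, 109057933 to 109059734, minus strand) encodes the exonuclease that removes cytosolic DNA. It was listed at 0 counts in all 7 libraries and was not tested. In GENCODE M21 all 1147 of its exon bases also lie in exons of Atrip on the same strand, and Atrip was at 17.1 ± 1.20 CPM in EYFP and 17.9 ± 0.638 CPM in ATG7. Reads from this locus cannot be divided between the genes with these counts, so no level is given for Trex1.

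Tlr7 (ENSMUSG00000044583, X chromosome, 167304929 to 167330558, minus strand) was the most abundant of the group per kilobase, with 78.4 ± 14.3 CPM per kilobase in EYFP and 79.9 ± 2.11 in ATG7. Its levels were 339.9, 263.5, 393.0 and 283.1 CPM in EYFP 1 to 4, against 316.1, 330.8 and 331.1 CPM in ATG7 1 to 3. The ATG7 libraries lay inside the range of the controls. The log2 fold change was 0.03 with a 95% interval from -0.25 to 0.30 (edgeR adjusted p = 0.961), a fold between 0.842 and 1.23. EYFP 3, the library with high Xist, had the highest value of this X-linked gene. It was also the highest control for Tlr9 on chromosome 9, at 139.6 CPM, and in the sum of microglial markers, at 25486 CPM. Whether the X linkage of Tlr7 plays a part was not tested. Without EYFP 3 the log2 fold change of Tlr7 was 0.14 (edgeR adjusted p = 0.659). Scaled to the summed microglial markers, a choice made after seeing the data, it was -0.00897.

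Tlr9 (ENSMUSG00000045322, chromosome 9, 106222598 to 106226883, plus strand) was at 130.5, 109.5, 139.6 and 119.9 CPM in EYFP 1 to 4, and stood at 129.0, 176.0 and 156.7 CPM in ATG7 1 to 3. ATG7 2 and 3 exceeded every control and ATG7 1 did not. The log2 fold change was 0.30 with a 95% interval from 0.05 to 0.55, and it did not pass after adjustment (edgeR adjusted p = 0.308). Tlr3 (ENSMUSG00000031639, chromosome 8, 45395665 to 45411080, minus strand) was at 104.7, 93.4, 104.4 and 91.7 CPM in EYFP 1 to 4, and stood at 97.9, 116.5 and 119.4 CPM in ATG7 1 to 3, again with ATG7 1 among the controls. Its log2 fold change was 0.18 with a 95% interval from -0.02 to 0.37 (edgeR adjusted p = 0.472). The upper bounds of the fold were 1.29 for Tlr3 and 1.46 for Tlr9.

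Per kilobase, the order of mean levels in EYFP was Tlr7, Tlr9 at 35.9 ± 3.76, Tlr3 at 18.9 ± 1.34, Eif2ak2 at 11.8 ± 1.39, Adar at 8.71 ± 0.680, Ddx58, Ifih1, Dhx58 and Zbp1 at 3.11 ± 1.38 CPM per kilobase. Neighbours in this order whose control libraries overlapped were Adar and Ddx58, Ifih1 and Dhx58, and Dhx58 and Zbp1, and the other neighbours did not overlap. The 3 receptors were the most abundant of the 9 genes in both groups, and the receptors were also the 3 genes with the smallest fold changes. Whether the response of the receptors differs from that of the helicases was not tested.

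**Figure D2:**
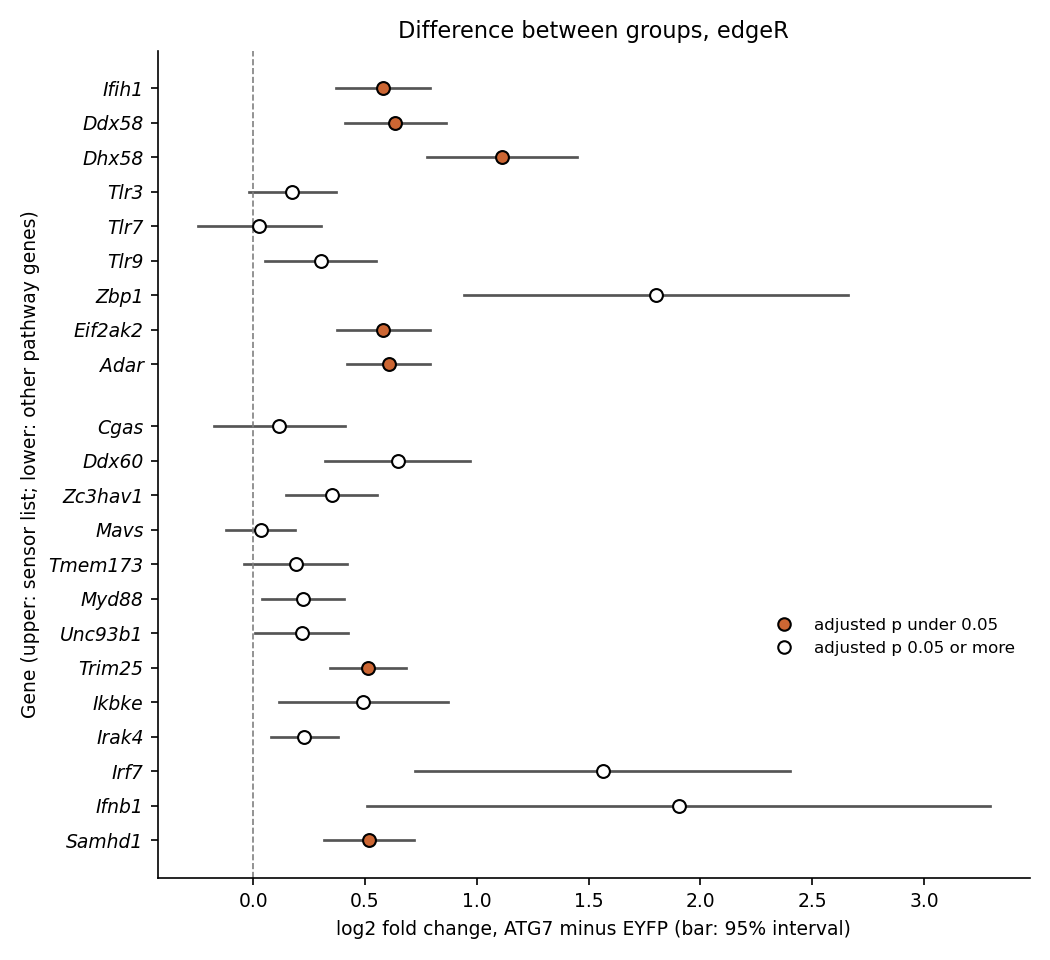
Log2 fold change of ATG7 against EYFP (horizontal axis) for the 9 testable sensor genes and 13 other genes of the pathway, with 95% intervals as bars. Filled points passed at an adjusted p under 0.05: Ifih1, Ddx58, Dhx58, Eif2ak2 and Adar among the sensors, and Trim25 and Samhd1 among the others.

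The order of the libraries was compared across these genes. EYFP 1 was the highest control in 7 of the 9 genes, and EYFP 3 was the highest in the other two, Tlr7 and Tlr9. EYFP 3 was the lowest control in 4 genes, Ddx58, Dhx58, Zbp1 and Eif2ak2. ATG7 1 was the lowest ATG7 library in 9 of 9 genes, and ATG7 2 was the highest in 7 of 9. Relative to the EYFP mean of log2 CPM, the median over the 9 genes was 0.16 in EYFP 1, between -0.12 and -0.03 in the other controls, and 0.45, 0.69 and 0.65 in ATG7 1, 2 and 3. ATG7 1 also had the lowest sum of T and natural killer cell markers of its group, at 4.22 CPM, and the lowest sum of microglial markers, at 20710 CPM. Its choroid plexus sum was the highest of its group, at 60665 CPM. The T and natural killer cell sum was 4.80 CPM in ATG7 2 and 11.3 CPM in ATG7 3. In EYFP 1 that sum was 2.08 CPM, below EYFP 2 at 2.75 CPM and EYFP 4 at 2.82 CPM. Whether these sums relate to the order of the sensor genes was not tested. The 9 genes are measured in the same libraries and share their depth and cell make-up, so the shared order does not count as replication.

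**Figure D3:**
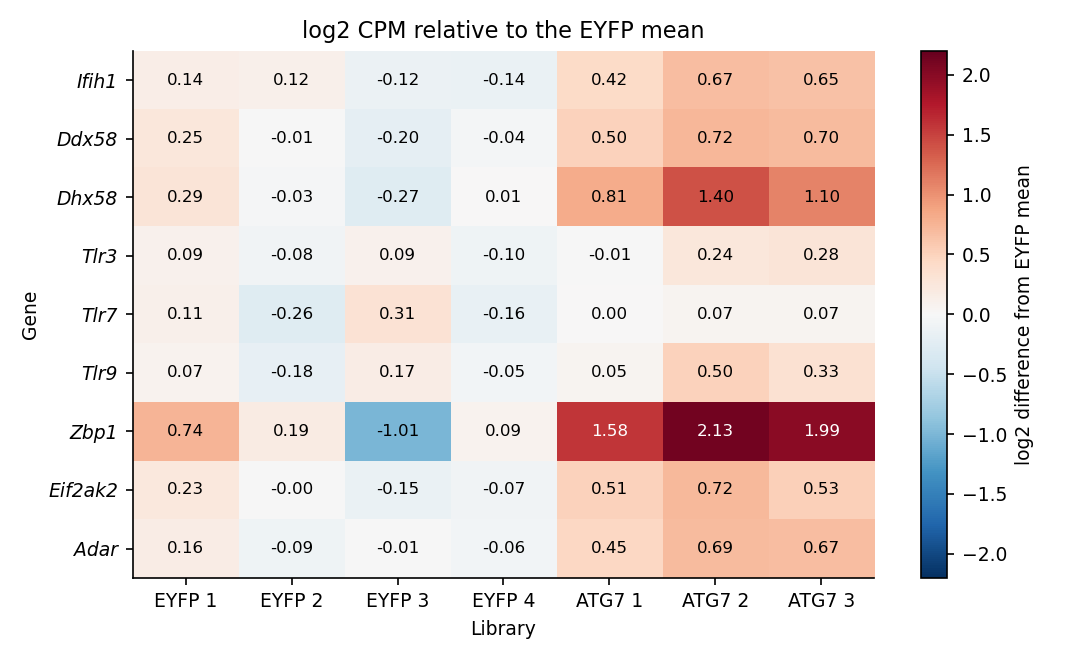
Log2 CPM of each sensor gene (rows) in each library (columns), as the difference from the mean of the EYFP libraries. Zbp1 spans from -1.01 in EYFP 3 to 2.13 in ATG7 2, while Tlr7 stays between -0.26 and 0.31 and is highest in EYFP 3.

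The genes with the most similar patterns were found as those with the smallest root-mean-square difference of centred log2 CPM over the 7 libraries. For Ddx58 they were Trim30a at 0.0509, H2-M3 at 0.0561 and Eif2ak2 at 0.0642. For Ifih1 they were Epsti1 at 0.0544, H2-T22 at 0.0615 and Parp9 at 0.0642. For Dhx58, with its larger change, they were Rnf213 at 0.0751, Mx2 at 0.0769 and Ifi207 at 0.0875. Eif2ak2 was nearest to Csf1 at 0.0562, Gbp9 at 0.0572 and Casp4 at 0.0601, and Adar to Slfn8 at 0.0478, H2-T24 at 0.0514 and Psmb9 at 0.0605. Among the sensors themselves, Ddx58 and Eif2ak2 were each other's nearest, and so were Tlr3 and Tlr9 at 0.103. For Zbp1, which did not pass and was compared with the other sensors only, the nearest of them was Dhx58 at 0.522.

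A list of 44 other genes of the sensing pathway was examined in the same fit, and all 44 could be tested. Trim25 and Samhd1 rose and none fell, beside 0.688% called higher and 0.755% called in either direction among all genes tested. The fold change was positive in 38 and negative in 6, where 49.2% of all genes tested were higher by sign. The median log2 fold change was 0.12. The groups did not overlap in 11 genes, all of them higher in ATG7, beside 6.33% of all genes not overlapping and higher and 11.2% in either direction. 

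Trim25, a ubiquitin ligase that acts on RIG-I, was at 64.5, 57.4, 53.7 and 56.5 CPM in EYFP 1 to 4, and stood at 78.2, 82.4 and 87.8 CPM in ATG7 1 to 3. Its log2 fold change was 0.51 (SE 0.0776, edgeR adjusted p = 0.0156). Samhd1, which removes the deoxynucleotides needed for reverse transcription, was at 152.5, 120.7, 121.1 and 127.9 CPM in EYFP 1 to 4, and stood at 179.8, 194.3 and 187.0 CPM in ATG7 1 to 3. It rose by 0.52 (SE 0.0910, edgeR adjusted p = 0.0272). In both genes the groups did not overlap and EYFP 1 was the highest control. Over 17 alternatives the call of Samhd1 was lost in 9, among them leaving out any one library except EYFP 1, with edgeR adjusted p between 0.0517 and 0.137 in those 6 fits. That of Trim25 was lost in 6, with edgeR adjusted p of 0.0676 without EYFP 4, 0.0721 without ATG7 2 and 0.106 without ATG7 3. Both calls were also lost with the choroid plexus covariate (edgeR adjusted p = 0.0774 for Samhd1 and 0.0505 for Trim25), with the scaling to microglial markers and with the replicate block.

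Among the other sensors of the list none of 9 passed. Ddx60, a helicase related to RIG-I signalling, had a log2 fold change of 0.65 (edgeR adjusted p = 0.0853), and Zc3hav1, which binds viral RNA rich in CpG, had 0.35 (edgeR adjusted p = 0.139). Cgas, the cytosolic DNA sensor, was at 28.1 ± 4.71 CPM in EYFP and 30.5 ± 4.14 CPM in ATG7, a log2 fold change of 0.12 with a 95% interval from -0.17 to 0.41 (edgeR adjusted p = 0.797).

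Of the 9 adaptors and cofactors, Trim25 was the member that passed. Mavs, on which RIG-I and MDA5 signal, was at 64.2 ± 2.38 CPM and 65.7 ± 4.52 CPM, with a log2 fold change of 0.03 and a 95% interval from -0.12 to 0.19 (edgeR adjusted p = 0.899). Tmem173, which encodes the DNA-sensing adaptor STING, had 0.19 (edgeR adjusted p = 0.521). Unc93b1 was at 917.7 ± 59.1 CPM and 1068 ± 98.5 CPM, a log2 fold change of 0.22 (edgeR adjusted p = 0.390). Myd88, the adaptor of Tlr7 and Tlr9, had 0.22 (edgeR adjusted p = 0.304).

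None of the 6 kinases and ubiquitin ligases passed. Irak4, a kinase that acts after Myd88, had a log2 fold change of 0.23 (edgeR adjusted p = 0.188) and Ikbke, a kinase for Irf3 and Irf7, 0.49 (edgeR adjusted p = 0.273). Irf7 was at 49.9, 37.6, 18.5 and 30.7 CPM in EYFP 1 to 4, and stood at 71.1, 118.2 and 113.0 CPM in ATG7 1 to 3, with no overlap. Like Zbp1 it was lowest in EYFP 3, and its log2 fold change of 1.56 did not pass (edgeR adjusted p = 0.152), while without EYFP 3 it was 1.35 and passed (edgeR adjusted p = 0.0482). Irf7 passed in 2 of 17 alternative settings, this fit among them. Ifnb1, the gene of interferon beta, had 14, 17, 1 and 7 counts in EYFP 1 to 4, against 15, 75 and 41 in ATG7 1 to 3, and the groups overlapped on the CPM scale. Its log2 fold change of 1.90 had a 95% interval from 0.51 to 3.30 (edgeR adjusted p = 0.251).

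The calls of the 5 sensor genes depended on the libraries more than their fold changes did. Over 17 alternative settings the log2 fold change stayed between 0.51 and 0.66 for Ifih1, 0.56 and 0.73 for Ddx58, 0.94 and 1.25 for Dhx58, 0.50 and 0.66 for Eif2ak2, and 0.50 and 0.68 for Adar. Without EYFP 4 or without ATG7 3 the number of sensor genes called was 0, without ATG7 2 it was 1 (Dhx58), and without EYFP 2 it was 3 (Ifih1, Eif2ak2 and Adar). Without EYFP 3 the 5 genes and Zbp1 were called. The log2 fold changes were then 0.53 for Ifih1, 0.57 for Ddx58, 1.02 for Dhx58, 0.53 for Eif2ak2 and 0.60 for Adar (edgeR adjusted p from 0.0107 to 0.0411), while Tlr3 at 0.20 and Tlr9 at 0.35 again did not pass (edgeR adjusted p = 0.436 and 0.242). With the sum of choroid plexus markers as a covariate 1 gene was called (Adar), and scaled to the summed microglial markers 1 gene was called (Dhx58).

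**Figure D4:**
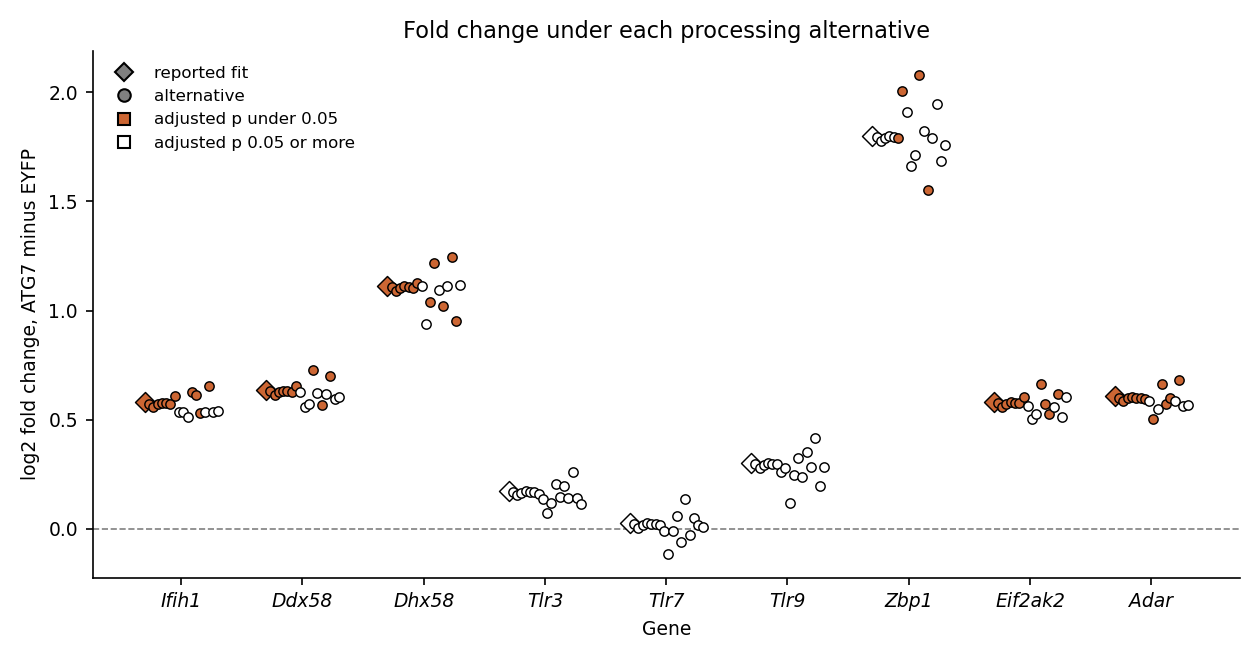
Log2 fold change (vertical axis) of each sensor gene in the reported fit (diamond) and in 17 alternative settings (circles), filled where the adjusted p was under 0.05. The values of the 5 called genes stay between 0.50 and 1.25 while their calls come and go, and those of Tlr7 lie on both sides of 0.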

How the data were processed

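RNA of 7 libraries, 4 EYFP and 3 ATG7 by their titles, was analysed from a table of raw counts per gene that the authors deposited. The submitters' processing notes name fastp 0.20.1, HISAT2 2.0.5, featureCounts and the build mm10 (GRCm38). The strand setting, the handling of reads shared between genes and the annotation release are not given in the sources used here. All columns were matched to libraries by name (0 unmatched). Symbols, positions and exon lengths came from GENCODE M21 by stable identifier, which matched 55141 of 55401 identifiers, and promoter windows from RefSeq (GRCm38.p6).

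The main test was the quasi-likelihood F test (edgeR 4.0.16, R 4.3.3; TMM factors, filterByExpr, robust dispersions, 2 groups, no covariate) on these counts, with Benjamini-Hochberg adjustment over 19199 genes and a threshold of 0.05. SEs are the absolute log2 fold change over the square root of F, and a prior count of 2 entered log2 CPM. The script was tested on simulated data before use. Marker sums were compared by exact permutation over 35 splits, two-sided by the absolute difference of means. p-values measure the spread between libraries, which may in part be technical.

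The genes, lists, tests and rules were chosen with earlier results of these data known. Besides the 10 sensors, the text names the pathway genes that passed, the 6 others with the smallest p, Mavs, Tmem173, Cgas, Unc93b1 and Myd88, and the 3 genes nearest in pattern to each sensor that passed. Eif2s1, Ripk3, Mlkl and Adarb1 were named after their values were seen. The alternatives were other scalings, other filters on low counts, DESeq2 1.42.0, limma-voom (limma 3.58.1) with quality weights, a replicate block, a choroid plexus covariate and leaving out each library.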

Additional observations from a re-analysis of the deposited data

How the results depend on the processing

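Of 153 values for the sensor genes under 17 alternatives, 115 kept direction and call, 29 lost and 4 gained a call, and 5 reversed, all of them for Tlr7. For the 13 pathway genes the numbers were 193, 15, 8 and 3 of 219. The scaling to summed microglial markers was chosen after seeing the data, and it put the median change over all genes at -0.0546 (log2).

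The number of genes called, 145 as reported, was 297 with no filter on low counts (234 higher, 63 lower), 585 with DESeq2 (407 higher, 178 lower), 37 with the choroid plexus covariate, 48 scaled to microglial markers and 28 to 277 when one library was left out. The number of sensor genes called, 5 as reported, was 1 with the covariate, 1 scaled to microglial markers and 0 to 6 when one library was left out. With the replicate number as a block both numbers were 0. The same-numbered libraries correlated at -0.0609, -0.182 and 0.0664 in their deviations from the group means. Libraries with different numbers correlated at -0.145 to 0.215. With so few libraries these values cannot show whether the numbers pair the samples. The labels state no pairing, and the block was kept apart from the results. The causes of these changes were not tested.

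Tlr7 had a log2 fold change of -0.00827 with the block, -0.114 with the covariate, -0.00897 scaled to microglial markers and -0.0601 to 0.137 with one library left out. Cgas was at -0.0705 with the covariate. Mavs was at -0.0248 scaled to microglial markers and -0.00499 to 0.0906 with one library left out. The log2 ratio of marker sums with one library left out ranged from -0.00912 to 0.145 for microglia, -0.0707 to 0.0236 for border macrophages, -0.524 to 0.484 for monocytes and neutrophils, 1.11 to 1.95 for T and natural killer cells, -0.252 to 0.0581 for B cells, -0.232 to 0.101 for plasmacytoid dendritic cells, -0.827 to 0.116 for neurons and -0.156 to 0.126 for astrocytes. With 6 libraries these exact tests cannot reach 0.05. A floor of 3 counts was 0.0543 to 0.0835 CPM, below every tested sensor.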
